A study of Mus musculus with 2 samples.

Results

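Shank1, Shank2 and Shank3 encode the Shank proteins, and Dlgap1, Dlgap2, Dlgap3 and Dlgap4 encode the SAPAP proteins (also called GKAP). These genes were taken by symbol from the transcript annotation of the deposited tables: 7 of 55536 annotated genes, with 68 of their transcripts. They were measured in RNA of tissue that the source label calls a layer of hippocampus, without naming which layer. It came from male mice of the strain B6CASTF1/J (F1 animals of C57BL/6J crossed with CAST/EiJ). The mice were adults aged 8 to 10 months and supplied by The Jackson Laboratory. The labels give a single group of 2 animals: replicate 1 is animal 2 and replicate 2 is animal 4, with no treatment and no mutant allele named, and with one donor entry for both. Each animal gave 1 library of total RNA, made from 300 ng after removal of ribosomal RNA, with the strand kept and with ERCC spike-ins (synthetic control RNAs) added. The tables do not split reads by parental allele.

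In the postsynaptic density of excitatory synapses, SAPAP proteins join the layers of the scaffold. Their N-terminal repeats bind the guanylate kinase domain of PSD-95 and its relatives, which hold glutamate receptors at the membrane, and the end of their C-terminal tail binds the PDZ domain of Shank. A full-length Shank protein starts with ankyrin repeats, followed by SH3 and PDZ domains, a proline-rich stretch that binds Homer and cortactin, and a SAM domain through which Shank proteins assemble into sheets. Homer in turn reaches glutamate receptors, and cortactin reaches actin. Alternative starts within the Shank genes are known to give shorter proteins that lack the N-terminal domains.

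The coding ends of the SAPAP genes are shown because they encode the tail that meets Shank. Each line gives the last 30 coding bases and the stop codon of 1 transcript from the GENCODE M21 transcript sequences (mm10, plus strand), with the last 12 coding bases in capitals.
Dlgap1-211: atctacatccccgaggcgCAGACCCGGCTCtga
Dlgap2-203: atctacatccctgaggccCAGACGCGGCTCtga
Dlgap3-201: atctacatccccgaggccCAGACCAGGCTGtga
Dlgap4-205: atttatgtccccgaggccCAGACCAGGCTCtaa
Dlgap1-210: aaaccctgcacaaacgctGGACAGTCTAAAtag
Dlgap4-201: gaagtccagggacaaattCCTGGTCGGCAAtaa
The first 4 lines are the main ends of the 4 genes. Over 6 pairs of genes they shared 24 to 27 of 30 bases, and 9 to 11 of the 12 in capitals. All 4 matched CAGACNNGGCTN, a pattern read off these lines and searched on the coding strand of complete protein-coding transcripts, where N is any base. Among 21767 such genes, 4 had a coding end with this pattern (0.0184%), and they were the 4 SAPAP genes. That these 4 matched was fixed by how the pattern was chosen, and ends with other codons for the same tail would be missed. The match describes letters and is no test of binding.

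Most SAPAP mRNA carried the shared end. For Dlgap1, transcripts ending there (last coding base at chr17:70818231) took 73.4% of the gene's TPM in replicate 1 and 81.4% in replicate 2, a mean of 77.4% ± 5.71 (SD, n = 2). TPM is a level per unit of transcript length, scaled to the same total in each library. For Dlgap2 (chr8:14846705) the shares were 67.5% and 73.3%, for Dlgap3 (chr4:127236365) they were 98.0% and 100% (69.5% and 73.4% with the second transcript table), and for Dlgap4 (chr2:156762900) they were 82.7% and 83.7%, each in replicates 1 and 2. The last 2 lines show the alternative ends, which lacked the pattern. The Dlgap1 end at chr17:70815409 took 7.48% in replicate 1 and 8.18% in replicate 2, and the Dlgap4 end at chr2:156761982 took 7.02% in replicate 1 and 11.5% in replicate 2. In both libraries, the alternative ends were therefore the minor ones. Noncoding transcripts made up the rest, together with incomplete coding models.

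All 7 genes were abundant, and their levels spanned 6.64-fold. Shank1, on chr7:44310253-44360572, was the highest, with 306 TPM in replicate 1 and 268 TPM in replicate 2 (287 ± 27.4 TPM). Shank3, on chr15:89499623-89560261, had 114 TPM in replicate 1 and 97.5 TPM in replicate 2 (106 ± 11.3 TPM). Shank2, on chr7:144001928-144424494, had 67.3 TPM in replicate 1 and 52.9 TPM in replicate 2 (60.1 ± 10.2 TPM). Within the Shank family, each gene's 2 libraries lay apart from those of the other Shank genes. Shank1 alone made up 62.9% of the summed Shank TPM in replicate 1 and 64.0% in replicate 2, Shank3 made up 23.3% in each, and Shank2 made up 13.8% and 12.7%.

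Among the SAPAP genes, Dlgap1 led. It lies on chr17:69969073-70821413 and had 249 TPM in replicate 1 and 231 TPM in replicate 2 (240.2 ± 12.5 TPM). Dlgap3, on chr4:127169204-127237022, had 124 TPM in replicate 1 and 123 TPM in replicate 2 (124 ± 0.714 TPM). Dlgap4, on chr2:156613705-156764363, had 88.6 TPM in replicate 1 and 83.0 TPM in replicate 2 (85.8 ± 3.97 TPM). Dlgap2, on chr8:14095865-14847680, was the lowest of the 7, with 48.6 TPM in replicate 1 and 37.9 TPM in replicate 2 (43.3 ± 7.52 TPM). Dlgap1 made up 48.8% and 48.6% of the summed SAPAP TPM in replicates 1 and 2, Dlgap3 24.4% and 25.9%, Dlgap4 17.4% in each, and Dlgap2 9.51% and 7.98%. Dlgap5, the remaining gene of the family, is a mitotic spindle protein and not a synaptic one; it had 2 expected counts in replicate 1 and 5 in replicate 2 (0.13 and 0.24 TPM).

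**Figure D1:**
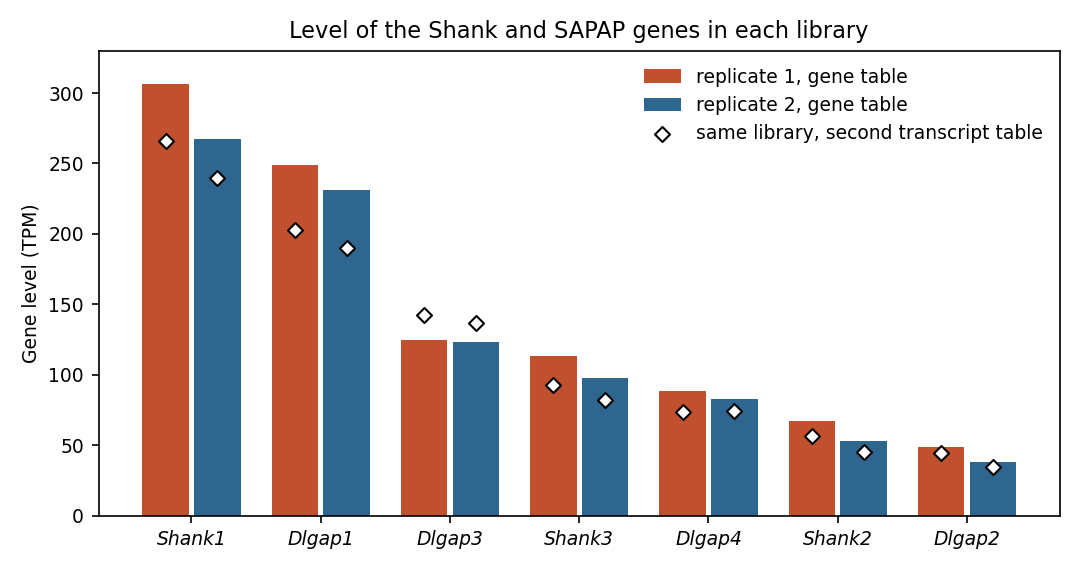
Gene level in TPM (vertical axis) of the 7 genes in each library, from the gene table (bars) and from the second transcript table summed per gene (diamonds). Bars run from Shank1 at 306 TPM in replicate 1 and 268 TPM in replicate 2 to Dlgap2 at 48.6 TPM and 37.9 TPM, and the order of the genes was the same with both tables.

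The order was Shank1, Dlgap1, Dlgap3, Shank3, Dlgap4, Shank2 and Dlgap2 in both libraries, so the families were interleaved rather than separated. For 6 of 6 neighbours in that order, the 2 libraries of the higher gene lay above the 2 libraries of the lower gene. By the ratio of mean TPM, the closest pair was Dlgap3 over Shank3, 1.10-fold in replicate 1 and 1.26-fold in replicate 2. In replicate 2 alone, Shank1 over Dlgap1 was the closest, at 1.16-fold. The widest step was Dlgap1 over Dlgap3, 2.00-fold in replicate 1 and 1.88-fold in replicate 2. The sizes of the steps depended on the quantification. With the second transcript table, Dlgap3 over Shank3 was the widest step, 1.54-fold in replicate 1 and 1.67-fold in replicate 2. Dlgap1 over Dlgap3 was 1.43-fold and 1.39-fold there. No test was made, since an exact permutation test of 2 values against 2 cannot go below p = 0.333. The summed Shank level was 487 TPM in replicate 1 and 418 TPM in replicate 2 (453 ± 48.9 TPM), and the summed SAPAP level was 511 TPM and 476 TPM (493 ± 24.7 TPM). The Shank sum was 0.954 times the SAPAP sum in replicate 1 and 0.879 times in replicate 2. Against 13029 protein-coding genes with 1 TPM or more in both libraries (median 17.4 TPM), Shank1 stood above 98.5% of genes by mean TPM, Dlgap1 above 97.9%, and Dlgap2 above 77.8%.

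In a second quantification, made from the read files and summed per gene, all 7 genes kept their rank. Shank1 had 266 TPM in replicate 1 and 239.7 TPM in replicate 2, and Dlgap2 had 44.6 TPM and 34.2 TPM. Dlgap3 was the gene that came out higher there, with 142 TPM in replicate 1 and 137 TPM in replicate 2, and its share of the SAPAP sum was 30.7% and 31.5%. The deposited bounds of TPM lay below the deposited TPM itself for 4 of 7 genes in each library, for example 284 to 301 TPM for Shank1 in replicate 1, so they are not intervals around the values given here.

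Expected counts (reads assigned by the quantification program, with shared reads divided) were large enough that counting error was small for every one of the 7 genes. Shank1 had 29217 expected counts in replicate 1 and 35414 in replicate 2, and Dlgap2, the lowest, had 2456 and 2701. The libraries held 23458117 expected counts (replicate 1) and 29584307 (replicate 2). Of these, 0.210% and 0.243% were on spike-ins. Of each list of hippocampal neuron markers, the highest is given. Slc17a7, the vesicular glutamate transporter, averaged 621 TPM, Mpped1 of CA1 96.3 TPM, C1ql3 of dentate granule cells 64.5 TPM and Gad1 of interneurons 186 TPM. The list medians were lower, at 114 TPM for glutamatergic neurons and 83.05 TPM for CA1. They were 33.1 TPM for dentate granule cells and 39.0 TPM for interneurons. Slc1a2 of astrocytes averaged 827 TPM, Mbp of oligodendrocytes 845 TPM, P2ry12 of microglia 23.6 TPM and Cldn5 of endothelium 19.7 TPM. In striatal, thalamic and cerebellar granule lists, the highest were Rgs9 at 6.14 TPM, Prkcd at 15.4 TPM and Gabra6, tied with Barhl1, at 0.015 TPM. The libraries stood apart in choroid plexus RNA: its 8 markers summed to 17.6 TPM in replicate 1, against 1785 TPM in replicate 2, and 7 of 8 passed the test below, all lower in replicate 1. Ttr, its most abundant transcript, had 8.68 TPM in replicate 1 and 1703 TPM in replicate 2. In tissue RNA of this kind, fewer cells of a type and less RNA per cell cannot be told apart.

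The genes differed in how their RNA was divided among transcripts. Shares are the percent of a gene's TPM assigned to each annotated transcript. In both libraries and with both quantifications, the same transcript led in 7 of 7 genes. Of the 68 transcripts, 29 had a mean share of 5% or more, and 12 were listed at 0 in both libraries.

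**Figure D2:**
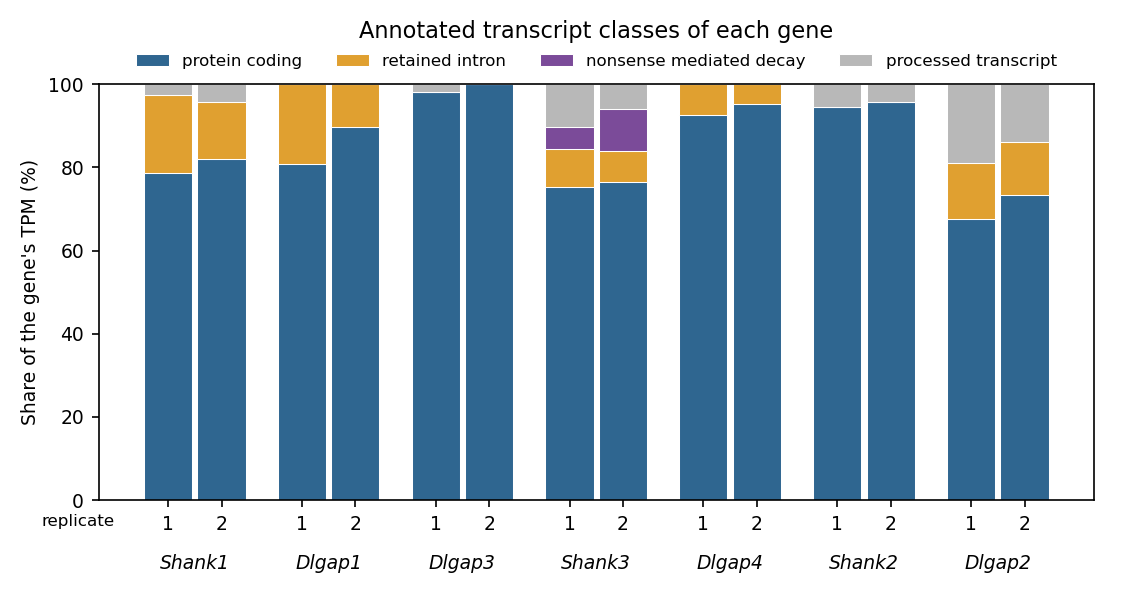
Share of each gene's TPM (vertical axis, percent) on protein-coding, retained-intron, nonsense-mediated-decay and processed transcripts, with replicate 1 left of replicate 2. The protein-coding share of Dlgap2 was 67.5% in replicate 1 and 73.3% in replicate 2, and that of Dlgap3 was 98.0% and 100% in the first transcript table plotted here, but 69.5% and 73.4% in the second.

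Shank1 was shared by 3 coding transcripts with one start codon (chr7:44312707) and one coding end. Shank1-203 took 46.3% in replicate 1 and 46.8% in replicate 2, Shank1-201 took 21.2% and 20.7%, and Shank1-202 took 11.2% and 14.4%. These transcripts differ in coding sequence by short exons alone. A retained-intron transcript of 987 bases, Shank1-206, took 16.0% in replicate 1 and 13.1% in replicate 2.

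Shank2 RNA started mostly inside the gene. Transcripts with the first start codon (chr7:144031264) hold up to 5523 coding bases, and they took 3.32% in replicate 1 and 5.55% in replicate 2. Those that start at chr7:144175920, with 4416 coding bases, took 30.3% and 31.3%. Those that start at chr7:144284969, with at most 3786 coding bases, took 61.0% in replicate 1 and 58.9% in replicate 2, and Shank2-205 was the leader with 58.6% and 54.3%. Of the 3 annotated starts, the one with the longest coding form thus had the smallest share in both libraries. That share rests on Shank2-203, since Shank2-206, with the same start, is incomplete and was at 0. Shank2-203 lacks exons of 9 and 21 bases that Shank2-202 and Shank2-205 hold. No complete annotated form joins the first start to these exons, so the shares are limited by which transcripts are annotated. With the second quantification the 3 mean shares were 3.79%, 30.6% and 60.2% in the same order. Which domains each annotated transcript encodes was not analysed here.

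In Shank3, unlike in Shank2, the longest coding form led. Only the 2 long forms named next reach the main Shank3 coding end. Each annotated coding form that starts further inside is incomplete, a decay target or ends earlier. The contrast with Shank2 is therefore limited by which transcripts are annotated. Transcripts from the first start codon (chr15:89499632, with 5415 coding bases, the leader Shank3-203) took 36.3% in replicate 1 and 42.0% in replicate 2. A second long form, Shank3-201 with 5190 coding bases, took 26.9% and 24.1%. The incomplete coding model Shank3-207, which starts inside the gene, took 8.91% in replicate 1 and 9.84% in replicate 2, and the processed transcript Shank3-206 took 6.06% and 4.08%. With the second quantification, Shank3-206 took 8.26% in replicate 1 and 9.73% in replicate 2, so that its order between the libraries turned. Shank3-208, annotated as a target of nonsense-mediated decay, took 5.35% in replicate 1 and 10.0% in replicate 2. Its share was 14.5% and 20.2% with the second quantification.

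Dlgap1 had the most transcripts (20) and the flattest division. A coding start at chr17:70522188, within the gene, gives at most 2076 coding bases and took 46.4% in replicate 1 and 50.4% in replicate 2, with the leader Dlgap1-211 at 28.4% and 29.7%. Of the same group, Dlgap1-209 took 12.8% and 15.8%, and Dlgap1-206 took 5.19% and 4.91%. The first start, at chr17:70516022, gives up to 2976 coding bases and took 25.2% in replicate 1 and 28.7% in replicate 2, with Dlgap1-207 at 16.9% and 18.7% and Dlgap1-210 at 6.47% and 7.54%. The shorter coding form was the more abundant one in both libraries. The second quantification gave the long group more, 33.7% in replicate 1 and 36.4% in replicate 2. It gave almost none to Dlgap1-219, which took 8.28% and 9.84% with the first and 0.248% and 1.24% with the second.

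Dlgap2, Dlgap3 and Dlgap4 were each dominated by a full-length form. Dlgap2-203, with 3177 coding bases, took 63.9% in replicate 1 and 68.3% in replicate 2, and the processed transcript Dlgap2-202 took 8.21% and 6.68% (1.68% and 1.62% with the second quantification). Dlgap3-201, with 2931 coding bases, took 84.5% and 87.4%, while Dlgap3-203, which has the same coding sequence and another first exon, took 8.25% and 6.69%, and Dlgap3-202 took 5.24% and 5.88%. With the second quantification Dlgap3-201 took 56.8% in replicate 1 and 61.9% in replicate 2, and Dlgap3-204, a processed transcript of 438 bases, held 30.5% and 26.7%, against 2.00% and 0% with the first. Dlgap3-203 took 5.52% and 3.72% there. Dlgap4-205, with 2967 coding bases, took 67.3% in replicate 1 and 67.2% in replicate 2. Starting inside the gene, Dlgap4-203, with 1359 coding bases, took 15.4% and 13.6%, and Dlgap4-201, with 732 coding bases and the alternative end printed above, took 7.02% and 11.5%. With the second quantification, Dlgap4-203 took 11.3% in replicate 1 and 7.49% in replicate 2.

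**Figure D3:**
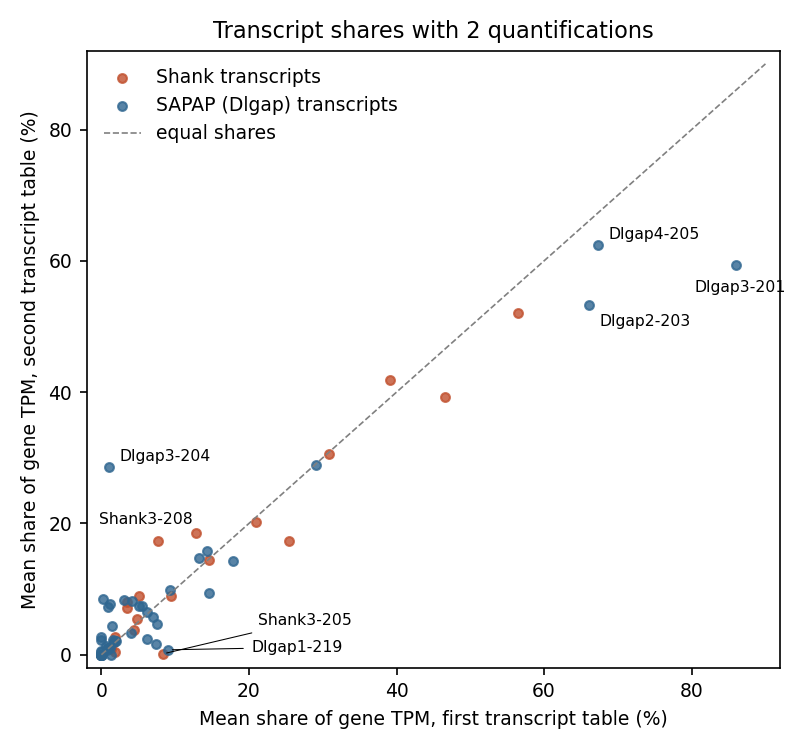
Mean share of gene TPM of the 68 transcripts over both libraries, in percent, by the first transcript table (horizontal axis) and the second (vertical axis). Most points lie near the line of equal shares, and Dlgap3-201, at 86.0% and 59.3%, and Dlgap3-204, at 1.00% and 28.6%, lie farthest from it among the named ones.

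Retained-intron transcripts were found for 5 of the 7 genes, and in 5 of 5 their share was higher in replicate 1 with both quantifications. The shares were 18.7% in replicate 1 and 13.9% in replicate 2 for Shank1, 19.1% and 10.4% for Dlgap1, 13.6% and 12.8% for Dlgap2, 9.13% and 7.44% for Shank3, and 7.51% and 4.86% for Dlgap4. Single transcripts behind them were Dlgap1-213 (7.40% in replicate 1 and 4.94% in replicate 2), Dlgap2-207 (13.6% and 12.8%), Shank3-205 (9.13% and 7.44%) and Dlgap4-208 (7.51% and 4.86%). With the second quantification, the Dlgap1-213 share was 3.52% in replicate 1 and 1.30% in replicate 2, and the Shank3-205 share was 0.23% and 0%. This direction was not particular to the 7 genes. Of 5177 genes with 10 TPM or more in both libraries and a mean retained-intron share of 1% or more, 82.5% had the higher share in replicate 1, with medians of 14.3% in replicate 1 and 9.47% in replicate 2. Whether unspliced RNA, RNA quality or another property of the libraries goes with it was not tested.

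The coding sequences also differed by short segments, 12 in all, of which 10 are whole exons. Inclusion is the TPM of coding transcripts that hold the segment as a percent of those that span it. In the 3 Shank genes a short exon lies at nearly the same place, and the exons are printed because they are the main coding difference that the genes share. Each is preceded by a coding exon of 81 bases, in Shank2 with 1 further exon of 9 bases between them. In Shank2 and Shank3 the next coding exon has 131 bases, in Shank1 69 bases. Capitals mark the longest run that the exons have in common, 7 bases, found by script (GENCODE M21 transcripts, mm10, plus strand).
Shank1, chr7:44344298-44344321, 24 bases: tctccccctggaAGAAGAAaattg
Shank2, chr7:144398241-144398261, 21 bases: cctcagtccggaAGAAGAAgg
Shank3, chr15:89538015-89538038, 24 bases: cttccattcggAGAAGAAaagggg
All of them keep the reading frame, since their lengths are multiples of 3. Inclusion was 85.8% in replicate 1 and 82.5% in replicate 2 for the Shank1 exon, 94.0% and 89.4% for the Shank2 exon, and 88.2% and 87.1% for the Shank3 exon. The exon was thus in most of the coding RNA of each Shank gene. For Shank3 the value rests on the incomplete model Shank3-207, the only spanning coding transcript that lacks the exon. For Shank2 the value is tied in part to the start. Shank2-203, the only complete form from the first start, lacks the exon, as does Shank2-201. A further Shank1 exon of 27 bases (chr7:44334033-44334059) was included at 73.0% in replicate 1 and 74.7% in replicate 2.

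Of the SAPAP segments, an exon of 30 bases in Dlgap1 and an exon of 89 bases in Dlgap4 were in a minority of the RNA, and they are printed for that reason, with the 80-base Dlgap4 exon that stands in place of its 89-base neighbour.
Dlgap1, chr17:70718196-70718225, 30 bases: gtgtcataaaactgagttctgccgttgaag
Dlgap4, chr2:156748023-156748102, 80 bases: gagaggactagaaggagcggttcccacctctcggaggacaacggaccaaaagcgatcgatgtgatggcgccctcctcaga
Dlgap4, chr2:156748332-156748420, 89 bases: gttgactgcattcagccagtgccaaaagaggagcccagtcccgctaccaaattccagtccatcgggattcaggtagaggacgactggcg
The Dlgap1 exon was included at 33.8% in replicate 1 and 32.3% in replicate 2, and at 43.1% and 40.3% with the second quantification. The Dlgap4 exons replace each other: no coding transcript that spans them holds both. The 80-base exon was included at 81.4% in replicate 1 and 80.3% in replicate 2, and the 89-base exon at 17.2% and 17.3%. The other SAPAP segments were in most of the RNA. An extension of 84 bases in Dlgap1 was included at 83.3% and 83.5%, an exon of 42 bases in Dlgap2 at 100% and 99.6%, and an extension of 33 bases in Dlgap3 at 94.7% and 94.1%.

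**Figure D4:**
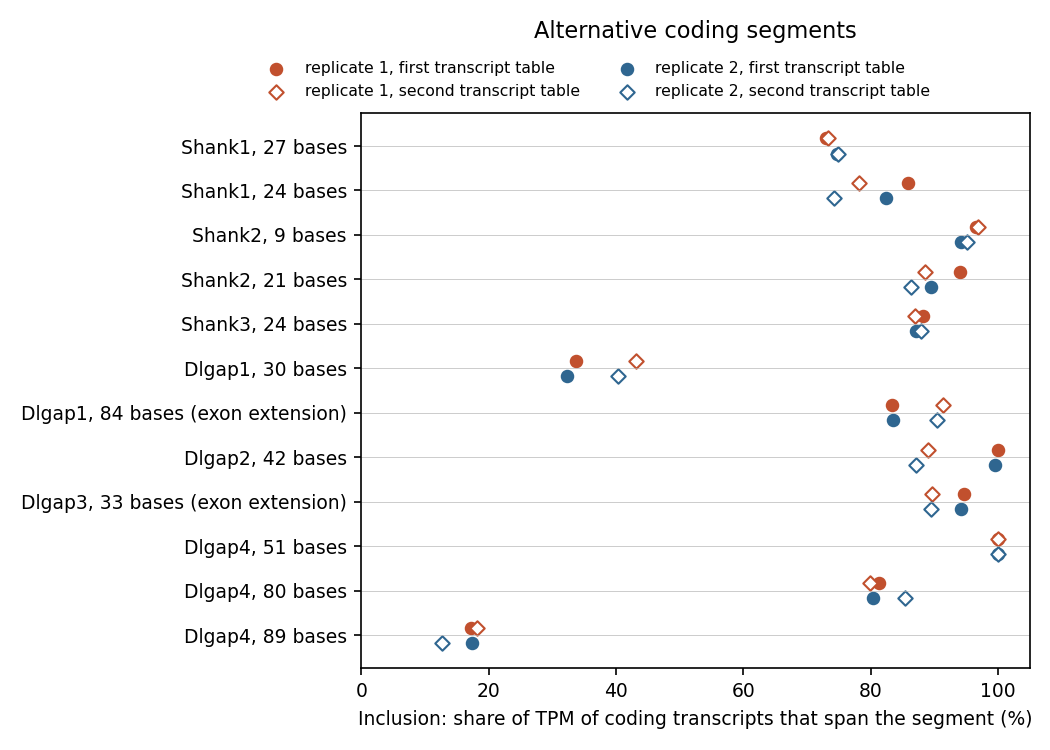
Inclusion of the 12 alternative coding segments (horizontal axis, percent of the TPM of coding transcripts that span the segment) in replicate 1 and replicate 2, by the first transcript table (filled) and the second (open). By either table, 10 of the 12 were above the middle of the axis, and the 30-base Dlgap1 exon and the 89-base Dlgap4 exon were below it in both libraries.

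Start sites were examined in the RefSeq promoter table (GRCm38.p6), in which 4 of the 7 genes had an entry, with 5 starts: Shank3, Dlgap1 with 2, Dlgap3 and Dlgap4. Shank1, Shank2 and Dlgap2 are named only. The 250 bases before 3 of these starts are printed because they show how unlike these listed starts were in CpG content. The leading transcripts of Dlgap1, Dlgap3 and Dlgap4 begin at other starts, which had no entry and were not examined. For Dlgap3 the leader was Dlgap3-201, with 84.5% of the gene's TPM in replicate 1 and 87.4% in replicate 2. The Dlgap3 window printed here therefore lies before a minor start. The printed bases are written in the direction of the gene, with each CG in capitals.
Shank3, chr15:89499358-89499607: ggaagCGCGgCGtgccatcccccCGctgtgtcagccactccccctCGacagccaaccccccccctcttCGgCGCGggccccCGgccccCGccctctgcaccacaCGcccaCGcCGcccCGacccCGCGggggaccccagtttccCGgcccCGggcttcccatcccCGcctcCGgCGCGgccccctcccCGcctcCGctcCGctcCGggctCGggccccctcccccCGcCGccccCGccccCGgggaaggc
Dlgap1, chr17:69968823-69969072: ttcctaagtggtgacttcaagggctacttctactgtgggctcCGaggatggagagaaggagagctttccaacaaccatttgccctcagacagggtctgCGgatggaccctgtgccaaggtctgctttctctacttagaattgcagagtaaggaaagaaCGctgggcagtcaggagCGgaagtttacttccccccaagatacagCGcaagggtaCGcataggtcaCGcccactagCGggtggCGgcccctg
Dlgap3, chr4:127172630-127172879: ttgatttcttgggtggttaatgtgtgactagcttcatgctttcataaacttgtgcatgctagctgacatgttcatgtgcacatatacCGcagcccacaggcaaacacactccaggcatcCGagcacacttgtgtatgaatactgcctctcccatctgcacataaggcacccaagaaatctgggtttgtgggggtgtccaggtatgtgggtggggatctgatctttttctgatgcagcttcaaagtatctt
The Shank3 window held 31 CG and was 82.4% G or C, the Dlgap1 window held 9 and was 55.2%, and the Dlgap3 window held 2 and was 46.8%. Over 32851 promoters of the table the medians were 6 CG and 52.4%. As many CG as in the Shank3 window were found in 5.19% of promoters. Transcripts that begin within 500 bases of the Shank3 start carried 63.1% of the gene's TPM in replicate 1 and 66.1% in replicate 2, those at the Dlgap1 start 34.4% and 35.5%, and that at the Dlgap3 start 8.25% and 6.69%. The second Dlgap1 start (7 CG) carried 3.64% in replicate 1 and 1.70% in replicate 2, and the Dlgap4 start inside the gene (37 CG) carried 17.3% and 16.3%. The TATA box letters TATAAA, searched on both strands, were in none of the 5 windows and in 12.4% of all promoters. These counts describe letters only.

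Between the libraries, the counts of the 7 genes differed little. In an edgeR fit over 16123 genes, 130 passed at adjusted p under 0.05 (0.806% of those tested), of which 70 were higher and 60 lower in replicate 1. Of the 7 genes 0 passed, and 0 had an unadjusted p under 0.05, as 778 of the 16123 tested genes did. Since so few of all genes passed, 0 of 7 does not set these genes apart. In data simulated with its own dispersion, the fit recovered 2.67% of 2-fold and 71.3% of 4-fold differences, so it misses most small ones. These differences were planted in genes drawn across a wide range of counts, so the rates are not those of the 7 genes. Past 1.5-fold in either direction were 0 of the 7, against 14.1% of all tested genes. With so few genes, 0 of 7 is near that share and does not set them apart either. The tested genes also reach down to a CPM of 1, far below these 7. CPM, the counts scaled to library size with TMM, was 1239 in replicate 1 and 1208 in replicate 2 for Shank1 (log2 ratio 0.04), 294 and 252 for Shank2 (0.22), 341 and 338 for Shank3 (0.01), and 612 and 639 for Dlgap1 (-0.06). CPM was 104 in replicate 1 and 92.2 in replicate 2 for Dlgap2 (log2 ratio 0.18), 275 and 300.2 for Dlgap3 (-0.13), and 218 and 222 for Dlgap4 (-0.02). The log2 ratio was above 0 for 4 genes and below 0 for 3, with a median of 0.01, and the lowest edgeR adjusted p of any of them over the 7 settings of the fit was 0.951. With spike-in scaling the median of all genes moved to 0.23, and the ratio of each of the 7 then lay above 0. The test compares these 2 libraries and not conditions. A p that misses the threshold does not show that the libraries held equal amounts.

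**Figure D5:**
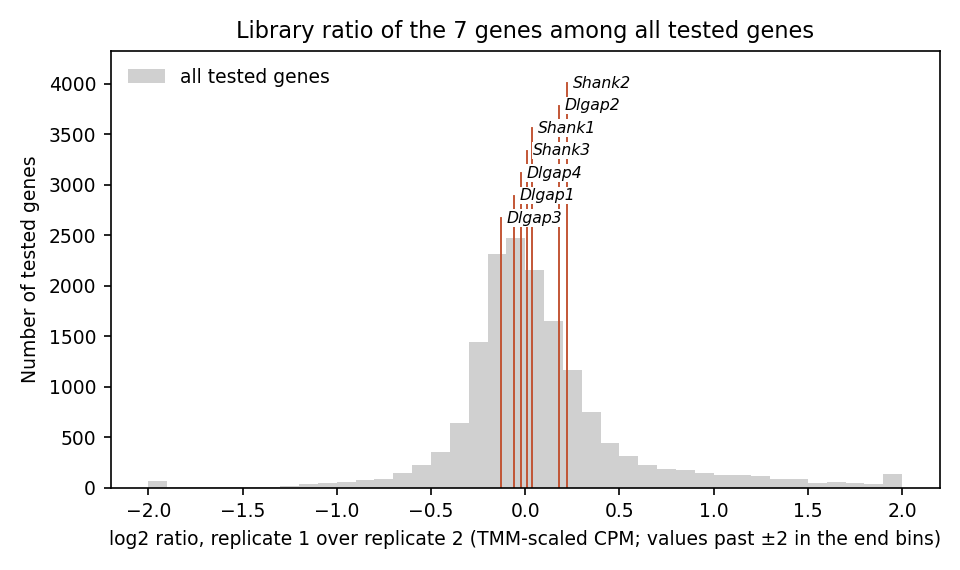
Log2 ratio of replicate 1 over replicate 2 (horizontal axis) of all 16123 tested genes (grey bars, number of genes per bin of 0.1) and of the 7 genes (lines, whose height only separates the names). The 7 lines lie between -0.13 for Dlgap3 and 0.22 for Shank2, within the central part of the bars.

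TPM gave another picture of the direction. It was higher in replicate 1 for 7 of 7 genes, as it was for 67.9% of all tested genes, while the scaled counts were higher in replicate 1 for 4 of 7. The higher share of retained-intron transcripts in replicate 1 moved with it in 5 of the genes, and its part in the TPM difference was not tested. The 8 choroid plexus markers summed to 17.65 TPM in replicate 1 and 1785 TPM in replicate 2. The 7 genes summed to 998 TPM in replicate 1 and 894 TPM in replicate 2. Any part of the choroid plexus RNA in the TPM difference was not tested either.

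Binding partners of the 2 families were described from lists chosen with earlier results of these data known. Of the partners of SAPAP, 0 of 8 passed in either direction, with a median log2 ratio of -0.02 and a median level of 95.6 TPM. Dlg4, which encodes PSD-95, averaged 405 TPM, and Dynll1, a dynein light chain, 357 TPM. Dlg1, which encodes SAP97, was the lowest at 51.8 TPM, and Sorbs2, an actin-linked adaptor, had the widest log2 ratio, 0.27. Of the partners of Shank, 0 of 13 passed, with a median log2 ratio of 0.02 and a median level of 76.2 TPM. Sptan1 (alpha-spectrin, which binds the ankyrin repeats) averaged 397 TPM, Adgrl1 (latrophilin) 146 TPM and Dbnl, an actin-binding protein, 35.3 TPM. Homer1 had 88.8 TPM in replicate 1 and 63.7 TPM in replicate 2, with a log2 ratio of 0.44 and an edgeR adjusted p of 0.874.

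Receptors and adhesion proteins of the excitatory synapse had a median level of 129 TPM and a median log2 ratio of 0.08, and 0 of 10 passed. The AMPA receptor subunits Gria1 and Gria2 averaged 362 TPM and 312 TPM. In postsynaptic signalling 0 of 7 passed, with a median level of 234 TPM and a median log2 ratio of 0.08. Camk2a and Camk2b, the subunits of CaM kinase II, averaged 1496 TPM and 491 TPM, and Lrrc7 (densin) averaged 52.8 TPM with a log2 ratio of 0.22. All tested genes had a median log2 ratio of 0.0013. The 7 scaffold genes had a median level of 106 TPM, between those of the SAPAP partner list and the receptor list. Shank1 and Dlgap1 lay below Dlg4 in both libraries.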

How the data were processed

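The study measured total RNA of tissue labelled as a layer of hippocampus in 2 libraries, 1 per animal, which the labels put in 1 group. For each library, the authors deposited a gene table and 2 transcript tables on mm10 with GENCODE M21, per the file headers; which programs made them is not stated in those headers or the labels. Per the file headers, the gene table and first transcript table came from a transcriptome alignment and the second transcript table from read files. Expected counts, as deposited, are reads assigned to each gene without scaling between libraries, and shared reads are divided by the program, so near-identical sequences make shares uncertain. The deposited TPM and FPKM values are scaled per length and depth, and the deposited percent values are each transcript's share of its gene. Estimated counts and TPM of the second transcript table, also deposited per transcript, were summed per gene here.

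Levels are means ± SD over the 2 animals, with no test. The libraries were compared with edgeR 4.0.16 (R 4.3.3) after rounding expected counts to whole numbers: TMM scaling, CPM of 1 or more in at least 1 library, an intercept-only design, trended dispersion, residual deviance against chi-square with 1 degree of freedom, Benjamini-Hochberg adjustment over 16123 genes, and log2 ratios of replicate 1 over replicate 2 with a prior count of 2. Its p-values show whether a gene differed more between these 2 samples than genes of similar abundance did. The dispersion came from the same 2 samples, so a large p does not show that they were alike. Their spread may be technical. The fit was tested on data simulated with its own dispersion. There it recovered 2.67% of 2-fold, 71.3% of 4-fold and 99.3% of 32-fold differences, planted in genes of a wide range of counts. Rows other than annotated genes, mostly spike-ins, stayed out. Alternatives were the second quantification, FPKM, the deposited bounds, coding transcripts only, other scalings, filters, prior counts and dispersions, and each library alone.

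The 7 genes and the lists were chosen with earlier results of these data known. The text names the 7 genes and Dlgap5, their transcripts with a mean share of 5% or more and retained-intron transcripts of 2% or more, and, of each partner list, the 2 highest, the lowest and the widest log2 ratio. Of each marker list it names the highest, and Ttr. A gene that this rule names is not reported here. Alternative segments are 9 to 90 coding bases held by some and lacked by other coding transcripts of a gene. Totals of expected counts were 23458117 (replicate 1) and 29584307 (replicate 2).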

Additional observations from a re-analysis of the deposited data

Results flagged for a closer look

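Genes that overlap the 7 genes had few reads. Of 15 overlapping annotated genes, 11 on the opposite strand, 8 were at 0 in both libraries. A pair of opposite-strand genes lay above the limit of 3 counts in both. The protein-coding 1700008O03Rik, which overlaps the end of Shank1, had 17 expected counts in replicate 1 and 22 in replicate 2, against 29217 and 35414 for Shank1. The lincRNA Gm15609, inside the span of Shank3, had 16 expected counts in replicate 1 and 10 in replicate 2. The library kit keeps the strand, but neither the labels nor the file headers say whether the counting used it.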

How the results depend on the processing

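Each gene kept its rank, and 6 of 6 neighbours lay apart, with the second quantification. The same held with FPKM, but FPKM differs from TPM by a single factor within each library. Ranks and ratios within a library were therefore fixed in advance there. The deposited bounds of 6 of 6 neighbours were apart within each library, but not across libraries: the lower bound of Shank3 in replicate 2 (90.3 TPM) was under the upper bound of Dlgap4 in replicate 1 (91.7 TPM), and that of Shank2 in replicate 2 (49.7 TPM) under that of Dlgap2 in replicate 1 (49.9 TPM). Of the values recomputed under other settings, 68 kept their side or moved by less than the SD. A further 23 moved by more, and 6 changed sign. Some of the 68 could not change. The dispersion does not enter the log2 ratio, and the prior count does not enter the test, so those values say nothing of stability. Where no construction is named, the cause was not tested. With the second quantification the mean level was 253 TPM for Shank1, 87.2 TPM for Shank3, 197 TPM for Dlgap1, 139.6 TPM for Dlgap3 and 73.9 TPM for Dlgap4. FPKM, another unit and so on another scale by construction, averaged 178 for Shank1, 37.2 for Shank2, 65.5 for Shank3, 149 for Dlgap1, 26.8 for Dlgap2, 77.1 for Dlgap3 and 53.3 for Dlgap4. The mean leading share with the second quantification was 39.3% for Shank1-203, 52.1% for Shank2-205, 53.3% for Dlgap2-203, 59.3% for Dlgap3-201 and 62.4% for Dlgap4-205. Among coding transcripts only, a smaller denominator by construction, it was 58.0% for Shank1-203, 51.6% for Shank3-203, 34.1% for Dlgap1-211, 93.9% for Dlgap2-203 and 71.7% for Dlgap4-205. A common dispersion gave 341 genes passing, against 130. The log2 ratio was -0.021 for Shank1 and -0.056 for Shank3 with the second quantification, -0.024 for Shank3 with no filter, and 0.17 for Dlgap1, 0.10 for Dlgap3 and 0.21 for Dlgap4 with spike-in scaling, which moved the median of all genes to 0.23. In no setting of the fit did any of the 7 genes or a listed partner pass. With 1 of 2 animals left out, a mean always moves by less than the SD, so those values say nothing of stability and are not counted; the order by ranges and the library test then give no value. No paired analysis was possible because the labels give a single group. With 2 animals, levels have no interval beyond the SD.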
